A study of Homo sapiens with 14 samples.

Results

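The miR-29 family was represented by 7 mature miRNAs, chosen by name from the 2588 that were counted in A549 cells, a human lung adenocarcinoma line. They were the 3p arms hsa-miR-29a-3p, hsa-miR-29b-3p and hsa-miR-29c-3p and the 5p arms hsa-miR-29a-5p, hsa-miR-29b-1-5p, hsa-miR-29b-2-5p and hsa-miR-29c-5p, and each had counts in both assays. The prefix hsa, for human, is left out from here on except beside the sequences. The assays enrich RNA that carries N7-methylguanosine (m7G), a guanosine with a methyl group on its base. BoRed-seq compared RNA reduced with NaBH4 (Red, n = 2) with non-reduced RNA that had received acid-quenched NaBH4 (Ctrl, n = 2). Reduction and low pH remove the m7G base, a biotin-coupled probe binds the site left behind, and the tagged RNA is captured on streptavidin. In the protocol the Ctrl RNA also goes through the low pH and probe steps, and no step exempts it from the capture. Ctrl is thus not untreated input RNA. m7G-RIP-seq compared heat-denatured RNA immunoprecipitated with an antibody against m7G (IP, n = 5) with the RNA before immunoprecipitation (Input, n = 5). All 14 libraries came from this line, with no treatment of the cells named in the labels. Whether replicates were separate cultures is not stated there, so p-values measure the spread between these libraries.

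The miR-29 family is best known for repressing de novo DNA methyltransferases, collagens and other matrix genes, and the survival factor MCL1, and it is low in many lung tumours. A miRNA hairpin is cut into a 3p and a 5p arm, and usually one arm is loaded into Argonaute as the guide while the other is degraded. In miR-29 the guide is the 3p arm. Its targets are recognised mainly through the seed, bases 2 to 8 of the guide.

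The 7 mature miRNAs come from 4 hairpins at 2 loci. On human GRCh38, MIR29A (chr7:130876747-130876810) and MIR29B1 (chr7:130877459-130877539) lie 648 bases apart on the minus strand, in an exon of the long non-coding RNA LINC-PINT and in an intron of LINC00513 on the other strand. MIR29C (chr1:207801852-207801939) and MIR29B2 (chr1:207802443-207802523) lie 503 bases apart on the minus strand, in an exon of the non-coding host gene MIR29B2CHG. The RefSeq mature sequences (build GRCh38.p14) are shown because the comparisons below turn on how little the members differ, and capitals mark the seed. The 3p arms, called guides here after what is known of the family, share one seed.
hsa-miR-29a-3p: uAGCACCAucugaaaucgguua
hsa-miR-29b-3p: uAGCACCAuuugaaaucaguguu
hsa-miR-29c-3p: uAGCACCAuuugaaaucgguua
The 5p arms have 4 different seeds.
hsa-miR-29a-5p: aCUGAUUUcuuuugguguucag
hsa-miR-29c-5p: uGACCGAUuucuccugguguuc
hsa-miR-29b-1-5p: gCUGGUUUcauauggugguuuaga
hsa-miR-29b-2-5p: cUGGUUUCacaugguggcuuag
Positions are counted from 1 at the 5′ end of the first miRNA named. miR-29c-3p differs from miR-29a-3p at 1 base, C10U. miR-29b-3p differs from miR-29a-3p at C10U, G18A, U21G and A22U and is 1 base longer. The sequence of miR-29b-3p is the same from MIR29B1 and MIR29B2, while the 5p arms of those hairpins differ. Over their 22 aligned bases, miR-29b-1-5p and miR-29b-2-5p are identical at 20 and differ by U11C and U19C. miR-29b-1-5p also has 1 extra guanine at its 5′ end, which moves its seed by 1 base, and 1 extra base at its 3′ end. Among the 2588 miRNAs counted, the seed AGCACCA belonged to those 3 3p arms alone, of the ones with a sequence at hand.

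How the reads were counted bears on some members. A read was allowed up to 1 mismatch and up to 10 loci. The count of miR-29b-3p was even in all but 2 of the 14 libraries, and its reads fit 2 hairpins and may have been counted at each, so its level relative to the other members is uncertain. miR-29a-3p and miR-29c-3p differ by 1 base, so the division of reads between them is uncertain too. The enrichment value of 1 member between groups does not depend on the number of loci. If reads of miR-29b-3p were counted at each hairpin, its counts stand for fewer reads. Its standard errors and p-values may then be too small, and its counts pass the filter more easily.

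Library totals were 4678102 and 5874405 counts in Ctrl, 242085 and 277498 in Red, 7097379 to 14874685 in Input and 2854811 to 6452759 in IP. In a principal component analysis of m7G-RIP-seq, IP and Input parted on the first component (57.1% of the variance). The second (15.4%) separated replicates 1 to 3 from replicates 4 and 5 in both groups, a split that the labels do not name, so results are also given within it.

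miR-29a-3p was the dominant member. Its level in Ctrl was 812 ± 282 CPM (counts scaled to a library total of 1000000; SD, n = 2), rank 37 of the 1104 miRNAs with a count there, and in Input 605 ± 292 CPM (SD, n = 5), rank 69 of 1596. The lengths of the members are 22 to 24 bases, so levels were compared without a length correction. Levels, ranks and shares in Ctrl are those recovered after the control treatment and need not match abundance in the cells. miR-29b-3p followed at 174 ± 82.4 CPM in Ctrl and 25.1 ± 13.8 CPM in Input, with the doubt about its loci. The other members stayed between 2.09 and 21.1 CPM in Ctrl and between 0.769 and 9.47 CPM in Input. Of the 3 3p arms together, miR-29a-3p made up 81.9% ± 2.12 in Ctrl (SD, n = 2) and 95.6% ± 0.837 in Input (SD, n = 5).

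The arms were not divided alike in the hairpins. At MIR29A the 3p arm held 99.5% ± 0.102 of the counts of both arms in Ctrl and 99.9% ± 0.0655 in Input. For miR-29c the 5p arm was the more abundant one, so the name guide for miR-29c-3p does not rest on these counts. miR-29c-3p held 31.4% ± 4.96 of both arms in Ctrl and 29.2% ± 7.70 in Input. The 7 members together had 1028 ± 377 CPM in Ctrl, 259 ± 56.7 in Red (SD, n = 2 each), 655 ± 309 in Input and 157 ± 49.3 in IP (SD, n = 5 each).

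**Figure D1:**
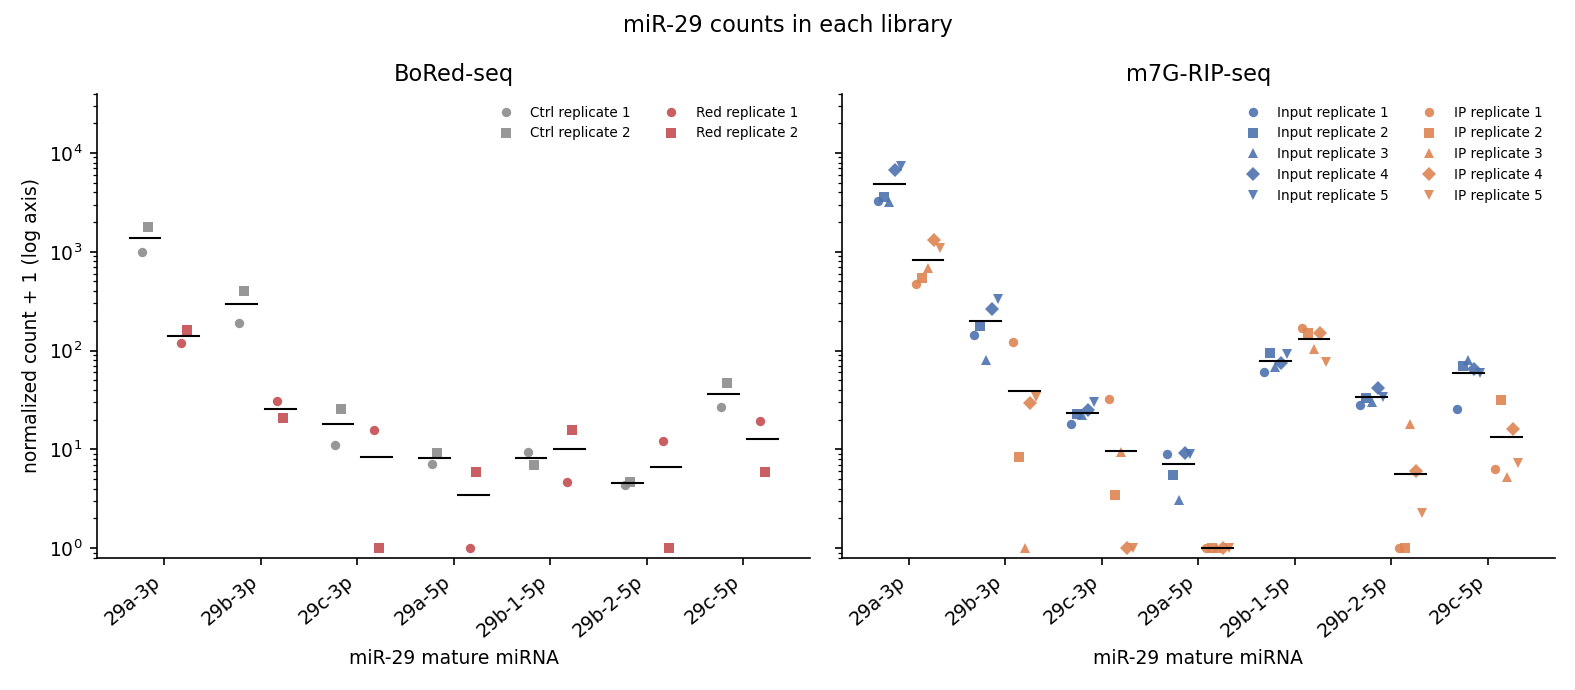
Normalized counts plus 1 (log axis) of the 7 miR-29 miRNAs in each of the 4 BoRed-seq and 10 m7G-RIP-seq libraries. Points are libraries, the marker shape is the replicate number and black lines are group means. miR-29a-3p sits lower in every Red or IP library than in any Ctrl or Input library of its assay, while miR-29b-1-5p overlaps between Input (59.9 to 93.4) and IP (74.9 to 166).

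BoRed-seq asks which miRNAs are recovered better from reduced than from non-reduced RNA. The 2 abundant guide strands, miR-29a-3p and miR-29b-3p, were depleted in Red, and no miR-29 member was enriched. All 7 members passed the count filter (at least 10 counts in at least 2 libraries) and 5 received an adjusted p from the DESeq2 Wald test. Of these, 2 were depleted and 0 enriched at an adjusted p under 0.05, and 0 had a higher level in Red at an unadjusted p under 0.05. Over all 400 miRNAs with an adjusted p, 27.2% were depleted and 32.2% enriched. edgeR's quasi-likelihood test called 3 members depleted and 0 enriched. Of the 7, miR-29a-3p alone had 10 counts in a Red library, and the other 6 passed the filter through Ctrl, so the number called says nothing by itself and each member is given below with the counts that Red would have held at the level of Ctrl.

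In normalized counts, miR-29a-3p was at 996 and 1761 in Ctrl and at 119 and 159 in Red. Both Red libraries were far below both Ctrl libraries. The log2 enrichment was −3.30 ± 0.39 (SE), a 9.85-fold lower level in Red, with an adjusted p of 3.72e-16 by the DESeq2 Wald test. miR-29b-3p, which carries a short 3′ motif known to bring it into the nucleus, was at 188 and 404 in Ctrl and at 29.6 and 19.6 in Red. The groups again did not overlap. Its log2 enrichment was −3.62 ± 0.59, with a DESeq2 adjusted p of 2.96e-09. Its Red values rest on 8 counts in each library, 16 in all, where 190 would have stood at the normalized level of Ctrl. They rest on fewer reads if reads were counted at both hairpins. Without Ctrl replicate 1 or Ctrl replicate 2 it no longer reached 10 counts in 2 libraries, so the number of depleted members was 1 instead of 2, and miR-29a-3p was the one left.

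miR-29c-5p, the more abundant arm of its hairpin, was at 25.7 and 45.7 in Ctrl and at 18.5 and 4.89 in Red. Its groups did not overlap either, with a log2 enrichment of −1.70 ± 0.92 that did not pass (DESeq2 adjusted p = 0.101). edgeR's quasi-likelihood test gave −1.92 with an adjusted p of 0.0182. miR-29c-3p was at 9.96 and 24.5 in Ctrl and at 14.8 and 0 in Red, and Red was both between and below the Ctrl values (log2 enrichment −1.35 ± 1.30, DESeq2 adjusted p = 0.373). In all, 4 members had groups that did not overlap, the fourth being miR-29a-5p, against 81.5% of the 453 miRNAs past the filter.

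The 5p arms of miR-29a and miR-29b were too rare for the depth of the Red libraries. miR-29a-5p had 22 counts in each Ctrl library and 0 and 2 in Red. miR-29b-1-5p had 30 and 16 in Ctrl and 1 and 6 in Red, and miR-29b-2-5p had 12 and 10 in Ctrl and 3 and 0 in Red. At the normalized level of Ctrl, the 2 Red libraries together would have held 4.74 counts of miR-29a-5p, 4.95 of miR-29b-1-5p and 2.37 of miR-29b-2-5p, beside 897 of miR-29a-3p. The log2 enrichments were −1.39 ± 1.78, 0.43 ± 1.25 and 0.56 ± 1.77, in the same order. DESeq2 gave no adjusted p for miR-29a-5p and miR-29b-2-5p, and 0.789 for miR-29b-1-5p. A decrease in these 3 was not detectable at this depth. On the normalized scale, the ratio of the pooled Red counts to those of Ctrl had upper 95% limits of 1.62, 3.15 and 4.22. Scaled to library totals, these limits were 3.54, 6.89 and 9.22, and the ratio for miR-29b-1-5p was 3.09 (1.18 to 6.89). These limits are for counting error alone and move with the scaling, so they do not bound an enrichment.

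m7G-RIP-seq asks which miRNAs the antibody against m7G recovers. Here 4 members were depleted, the guides miR-29a-3p and miR-29b-3p and the 5p arms miR-29b-2-5p and miR-29c-5p. One 5p arm, miR-29b-1-5p, was higher in IP in the DESeq2 fit, and that call did not hold in the fits named below. Of the 7 members, 6 passed the filter (at least 10 counts in at least 5 libraries) and all 6 received an adjusted p. In the DESeq2 Wald test 4 were depleted and 1 enriched, against 29.9% depleted and 27.3% enriched of all 670 miRNAs tested. miR-29b-2-5p passed the filter through Input alone, and the 5 Input libraries would by themselves have carried each of the others past it, so the number called is a description. The groups of 2 members did not overlap, against 42.4% of the 670.

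miR-29a-3p was at 3269, 3582, 3218, 6726 and 7332 normalized counts in Input replicates 1 to 5 and at 471, 539, 691, 1318 and 1096 in IP replicates 1 to 5. Every IP library was below every Input library. Replicates 4 and 5 were higher than replicates 1 to 3 on both sides. The log2 enrichment was −2.55 ± 0.37, a 5.86-fold lower level in IP, with a DESeq2 adjusted p of 4.28e-11. It was −2.59 in replicates 1 to 3 alone and −2.62 in replicates 4 and 5 alone.

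miR-29b-3p was at 142, 177, 79.8, 265 and 335 in Input and at 121, 7.38, 0, 28.4 and 33.0 in IP. IP replicate 1 stood within the Input range and the 4 other IP libraries were below it. The log2 enrichment was −2.39 ± 0.79 (DESeq2 adjusted p = 0.00554). Without IP replicate 1 it was −3.47 ± 0.68 (adjusted p = 1.16e-06). In replicates 1 to 3 alone it was −1.67 with an adjusted p of 0.427, and in replicates 4 and 5 alone −3.38 with an adjusted p of 6.18e-19.

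miR-29c-3p showed the same library apart. It was at 17.0, 21.6, 21.0, 24.2 and 28.8 in Input and at 31.7, 2.46, 8.43, 0 and 0 in IP. IP replicate 1, with 24 counts, was above every Input library and the other IP libraries, with at most 4 counts, were below every one. The log2 enrichment of −1.42 ± 1.01 did not pass (DESeq2 adjusted p = 0.220). Without IP replicate 1 it was −3.33 ± 0.82 (adjusted p = 0.000154), and with the replicate number as a block it was −3.05 (adjusted p = 0.00999). In replicates 1 to 3 alone the log2 enrichment was −0.51 (adjusted p = 0.715), and in replicates 4 and 5 alone, where IP held 0 counts, the fit called it lower (adjusted p = 0.000218). With a term for the split it was −2.17 (adjusted p = 0.0443). Why IP replicate 1 held more of both miRNAs was not tested.

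Among the 5p arms, miR-29c-5p was at 24.9, 68.0, 78.4, 64.6 and 58.6 in Input and at 5.28, 30.8, 4.21, 15.2 and 6.34 in IP. IP replicate 2 was above Input replicate 1, and otherwise IP was lower. The log2 enrichment was −2.22 ± 0.58 (DESeq2 adjusted p = 0.000311), with −2.07 in replicates 1 to 3 alone and −2.57 in replicates 4 and 5 alone. miR-29a-5p did not pass the filter. It had 7, 7, 3, 13 and 15 counts in Input and 0 counts in every IP library. With 3 counts put in for the IP group as a floor, it was 7.77-fold lower in IP by the same scaling, and 6.18-fold lower relative to library totals. That floor leaves out the counting error of Input. The exact 95% interval of the ratio of IP to Input, which includes it, reached up to 0.165 and 0.208, in the same order. Intervals and floors cover counting error alone.

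The 5p arms of miR-29b, whose sequences were compared above, differed from each other in IP. miR-29b-2-5p was at 27.1, 32.4, 29.4, 41.0 and 33.0 in Input and at 0, 0, 16.9, 5.07 and 1.27 in IP. Every IP library was below every Input library. The log2 enrichment was −2.95 ± 0.83 (DESeq2 adjusted p = 0.000954). It was −2.51 in replicates 1 to 3 alone, where the adjusted p was 0.113, −3.58 in replicates 4 and 5 alone (adjusted p = 0.00146), and −4.23 without IP replicate 3. The 10-count minimum was met by its 5 Input libraries and no IP library, so it leaves the test when any Input library is left out. IP held 14 of its counts in all, where 127 would have stood at the normalized level of Input.

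miR-29b-1-5p was at 59.9, 93.4, 66.5, 74.0 and 92.2 in Input and at 166, 149, 103, 150 and 74.9 in IP. In IP, 4 libraries were above every Input library and IP replicate 5 was inside the Input range. Its log2 enrichment was 0.74 ± 0.29 (DESeq2 adjusted p = 0.0210). The call did not hold with the replicate number as a block (0.70, adjusted p = 0.0570), in edgeR's quasi-likelihood test (0.75, adjusted p = 0.0659), without a count filter (0.70, adjusted p = 0.0597), without Input replicate 1 (0.60, adjusted p = 0.0922) or without Input replicate 3 (0.68, adjusted p = 0.0607). It was 0.90 in replicates 1 to 3 alone (adjusted p = 0.0567) and 0.36 in replicates 4 and 5 alone (adjusted p = 0.531). With the block, 5 members were depleted, miR-29c-3p being the fifth, and 0 enriched.

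**Figure D2:**
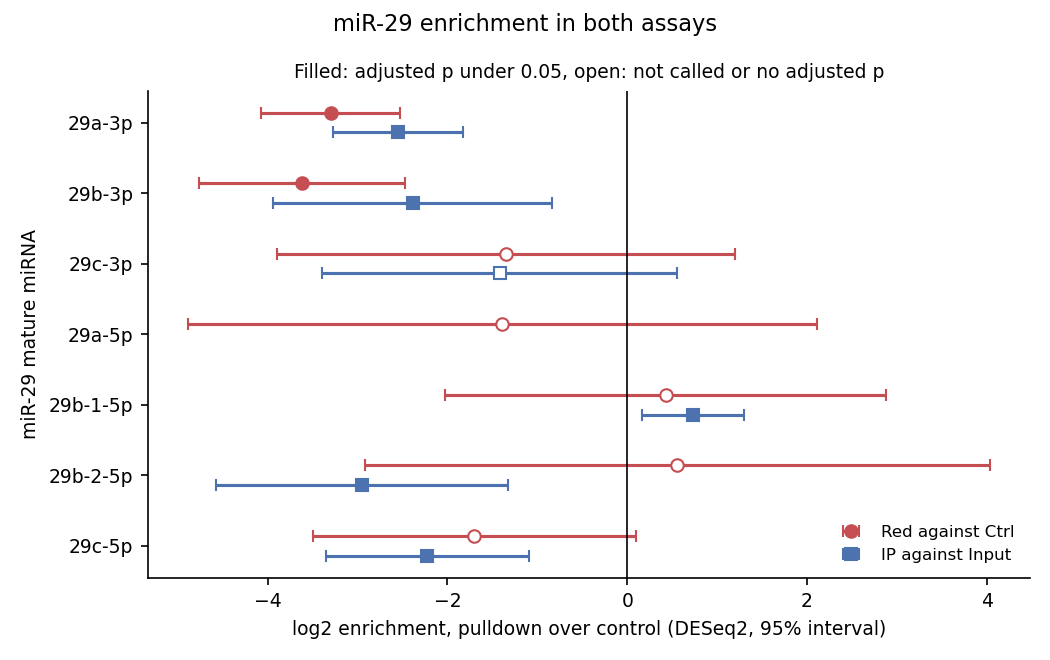
Log2 enrichment of the miR-29 miRNAs in BoRed-seq (Red against Ctrl, circles) and m7G-RIP-seq (IP against Input, squares) from DESeq2, with 95% intervals. Filled points passed an adjusted p under 0.05. miR-29a-3p and miR-29b-3p lie left of 0 in both assays, and miR-29b-1-5p and miR-29b-2-5p lie on either side of 0 in m7G-RIP-seq.

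The scaling sets the typical miRNA of an assay at no change, and members are measured against it. When libraries were scaled to their totals instead, the median log2 enrichment of all miRNAs moved by 1.08 in BoRed-seq and by 0.36 in the RIP assay. The share of calls that were enriched then went from 54.2% to 79.2% (175 enriched and 46 depleted) in BoRed-seq and from 47.8% to 58.6% (232 and 164) in m7G-RIP-seq. miR-29a-3p stayed depleted on that scale in both assays, with log2 enrichments of −2.14 and −2.25, and miR-29b-3p with −2.49 and −2.09. miR-29b-1-5p was at 1.08 in m7G-RIP-seq on that scale (DESeq2 adjusted p = 0.000587).

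Ratios between members within a library need no scaling. Their permutation tests were unpaired and left the replicate number out. The ratio of miR-29b-1-5p to miR-29b-2-5p (log2, pseudocount 0.5) was 1.13, 1.52, 1.17, 0.85 and 1.47 in Input and 7.98, 7.92, 2.54, 4.75 and 5.31 in IP. Every IP library was above every Input library, in both replicates 1 to 3 and replicates 4 and 5. The mean rose from 1.23 ± 0.28 to 5.70 ± 2.30 (SD, n = 5 each), a difference of 4.48 (2.61 with a pseudocount of 5) with an exact two-sided permutation p of 0.00794, the smallest that 5 against 5 allows. IP replicates 1 and 2 had 0 counts of miR-29b-2-5p, so their ratios, and with them the size of the difference, depend on the pseudocount. Adjusted over all 151 pairs of same-arm miRNAs with one family number, the exact permutation p was 0.0193 with either pseudocount, and 49.0% of those pairs passed. miR-29b-2-5p passed the filter through Input alone, where it was higher, so the p-values of this pair are a description. In shares, miR-29b-1-5p held 70.1% ± 4.03 of the counts of both miR-29b 5p arms in Input and 96.2% ± 5.88 in IP (SD, n = 5 each). Of those counts, miR-29b-2-5p had 0 of 126 and 0 of 121 in IP replicates 1 and 2, 8 of 57 in replicate 3, 5 of 153 in replicate 4 and 1 of 60 in replicate 5.

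The share of miR-29b-1-5p in Ctrl was 71.4% and 61.5%, beside 64.3% to 74.2% in the Input libraries. In Red it was 25.0% (exact Clopper-Pearson 95% interval 0.631% to 80.6%) and 100% (54.1% to 100%), on 1 count against 3 and on 6 against 0, so a change of the same ratio in BoRed-seq was not detectable at this depth.

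miR-29b-1-5p was also higher in IP relative to miR-29c-5p and to miR-29b-3p. Its log2 ratio to miR-29c-5p went from 0.46 ± 0.55 in Input to 3.61 ± 0.99 in IP (SD, n = 5 each), a difference of 3.15 (2.47 with a pseudocount of 5) with no overlap (exact permutation p = 0.00794, adjusted 0.0193). The ratio of miR-29b-3p, which both MIR29B1 and MIR29B2 give, to miR-29b-1-5p was 1.24, 0.92, 0.26, 1.84 and 1.86 in Input and −0.45, −4.22, −6.63, −2.38 and −1.17 in IP. All 5 IP libraries were below all 5 Input libraries, with a mean difference of −4.19, or −3.32 with a pseudocount of 5 (exact permutation p = 0.00794, adjusted over 173 arm pairs 0.0218). Of the 173 arm pairs, 42.2% passed. Without Input replicate 4 or Input replicate 5 the difference was −4.04 and −4.03, with adjusted exact permutation p-values of 0.0606 and 0.0588.

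**Figure D3:**
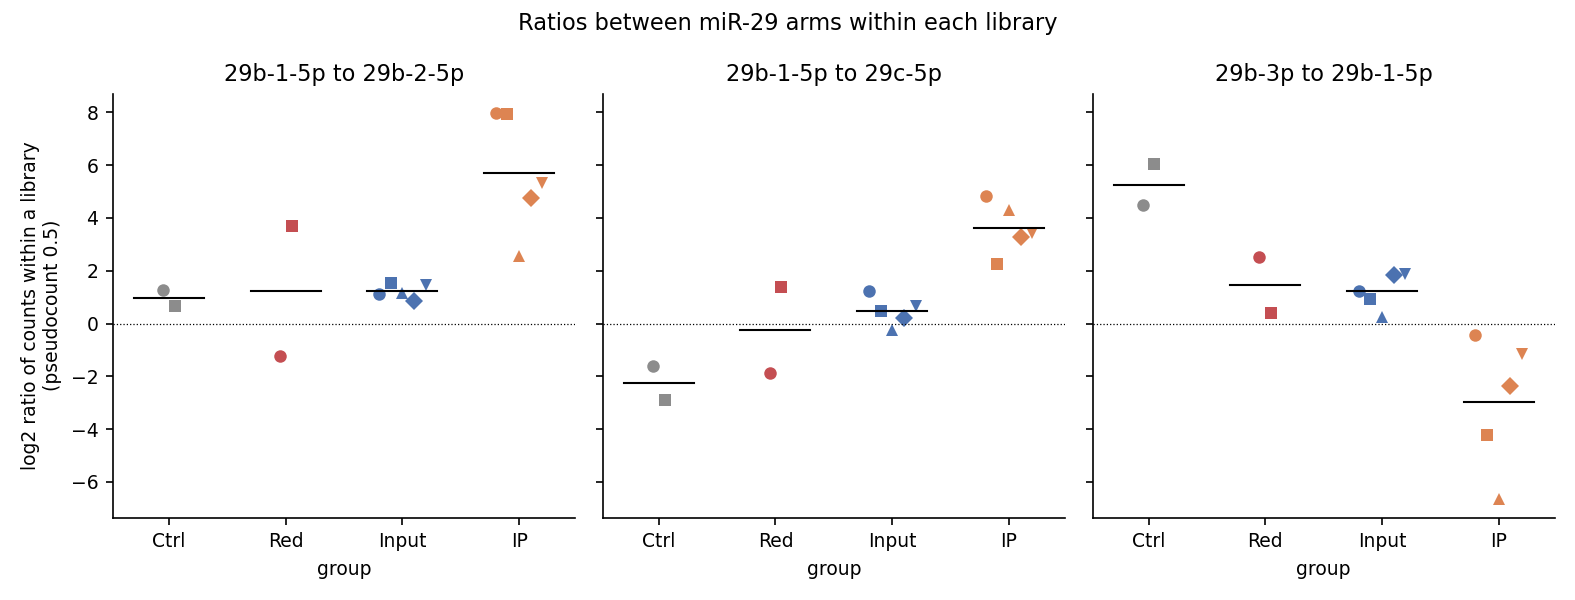
Log2 ratio of the counts of 2 miR-29 miRNAs within each library (pseudocount 0.5), by group. Points are libraries, the marker shape is the replicate number and lines are means. In IP, miR-29b-1-5p is higher relative to miR-29b-2-5p and to miR-29c-5p, and miR-29b-3p is lower relative to miR-29b-1-5p, than in any Input library, while the Red libraries are spread over several log2 units.

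The other ratios did not pass in m7G-RIP-seq. The difference between IP and Input was 0.28 for miR-29b-3p to miR-29b-2-5p (exact permutation p = 0.857) and −0.40 for miR-29c-3p to miR-29c-5p (exact permutation p = 0.778), both with overlap. Among the guides it was 0.93 for miR-29a-3p to miR-29b-3p, 0.28 for miR-29a-3p to miR-29c-3p and −0.65 for miR-29b-3p to miR-29c-3p, with exact permutation p-values of 0.540, 0.937 and 0.810. Without IP replicate 1 the first of these was 1.83 (adjusted exact permutation p = 0.0352). For miR-29b-2-5p to miR-29c-5p it was −1.33 (exact permutation p = 0.341), and −2.29 without IP replicate 3 (adjusted exact permutation p = 0.0176). The ratios among the 3 guides had standard deviations of 2.65 to 3.71 over the IP libraries on the log2 scale, so a difference between the guides could be seen here only if it was of that order.

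In BoRed-seq the depth of Red did not let the same ratios be compared. With 8 counts in each Red library, miR-29b-3p could reach a log2 ratio of at most 4.09 to any arm, below its Ctrl ratios of 4.48 and 6.04 to miR-29b-1-5p and of 5.76 and 6.69 to miR-29b-2-5p. With 32 and 65 counts, miR-29a-3p could reach at most 6.02 and 7.03, below its Ctrl ratios of 7.32 and 7.72 to miR-29a-5p. Lower ratios in Red were therefore fixed by the counts, and no direction was read from them. The ratio of miR-29c-3p to miR-29c-5p was −1.36 and −0.89 in Ctrl and −0.29 and −2.32 in Red, with overlap. Without a pseudocount, the 4 5p arms together made up 3.17% ± 0.487 of the counts of all 7 members in Ctrl and 14.5% ± 3.49 in Red (SD, n = 2 each; 136 counts in both Red libraries), and 3.69% ± 1.26 in Input and 15.9% ± 7.31 in IP (SD, n = 5 each). The rise in IP lay in miR-29b-1-5p, with a mean of 1.63% in Input and 13.99% in IP. The means in Input and IP were 1.26% and 1.38% for miR-29c-5p and 0.682% and 0.497% for miR-29b-2-5p. For miR-29a-5p they were 0.122% and 0%. Both Red libraries together held 2 counts of miR-29a-5p, 7 of miR-29b-1-5p, 3 of miR-29b-2-5p and 7 of miR-29c-5p. These are too few to divide the share in Red among the arms.

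The assays share no library, and the enrichments of 5 members could be compared between them. The difference, m7G-RIP-seq minus BoRed-seq on the log2 scale, was 0.75 ± 0.54 (SE; 95% interval −0.31 to 1.81) for miR-29a-3p and 1.23 ± 0.98 (−0.69 to 3.16) for miR-29b-3p. It was 0.31 ± 1.29 for miR-29b-1-5p, −0.064 ± 1.65 for miR-29c-3p and −0.52 ± 1.08 for miR-29c-5p. None of the 5 passed a two-sided z test adjusted over all 384 miRNAs with both values (adjusted p = 0.268 to 0.979), of which 38.0% passed. The intervals leave room for differences of several log2 units in the rarer members. Without Ctrl replicate 1 the difference for miR-29a-3p was 1.88 (adjusted p = 0.00554).

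The mature sequences above differ in their number of guanines, the base that m7G is made from. The 3 guides have 4, miR-29a-5p and miR-29c-5p have 5, miR-29b-2-5p has 7 and miR-29b-1-5p has 8. Of the 400 and 670 miRNAs tested, 88.8% and 89.9% had a RefSeq sequence. Across these 355 and 602 miRNAs, the log2 enrichment was correlated with the number of guanines, with Pearson r = 0.373 and Spearman rho = 0.365 in BoRed-seq and r = 0.417 and rho = 0.435 in m7G-RIP-seq. The points share their libraries and are no replicates, so the correlations are a description.

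Set against miRNAs with the same number of guanines, the guides lay at or below the middle. miRNAs with 4 guanines had a median log2 enrichment of −1.35 in BoRed-seq (49 miRNAs, 21 depleted and 9 enriched) and −1.26 in m7G-RIP-seq (74 miRNAs, 35 depleted and 7 enriched). The guides were at −3.30, −3.62 and −1.35 in BoRed-seq and at −2.55, −2.39 and −1.42 in m7G-RIP-seq. miR-29b-1-5p was near the median of miRNAs with 8 guanines, which was 0.54 in BoRed-seq (36 miRNAs) and 0.59 in m7G-RIP-seq (67 miRNAs). miR-29b-2-5p was at −2.95 in m7G-RIP-seq, where the median of miRNAs with 7 guanines was −0.41 (77 miRNAs, 26 depleted and 10 enriched). miR-29c-5p was at −1.70 in BoRed-seq, not called, and at −2.22 in m7G-RIP-seq. The medians of miRNAs with 5 guanines were −0.72 (64 miRNAs, 20 depleted and 14 enriched) and −0.65 (86 miRNAs, 37 depleted and 14 enriched). The part of guanine number in any of these values was not tested.

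**Figure D4:**
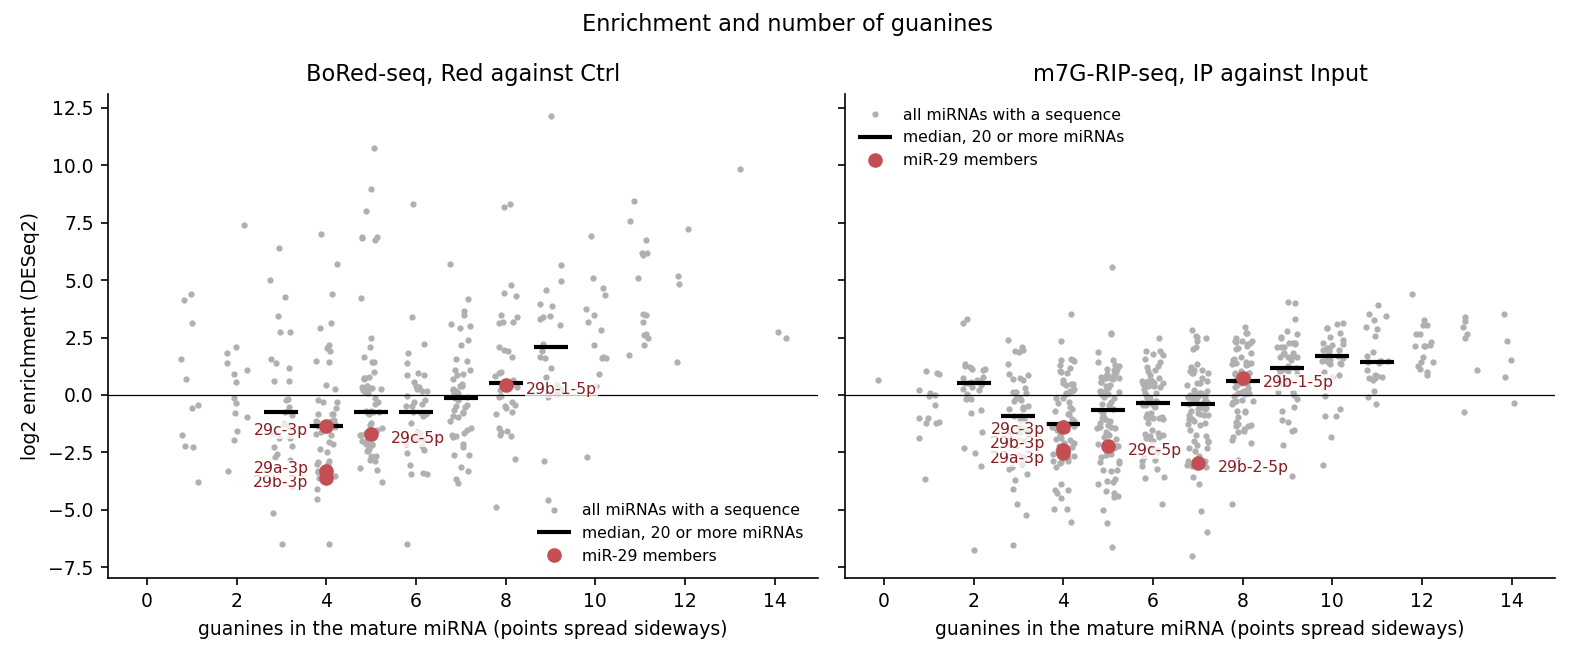
Log2 enrichment (DESeq2) against the number of guanines in the mature miRNA, for 355 BoRed-seq miRNAs and 602 m7G-RIP-seq miRNAs. Grey points are miRNAs, black bars are medians where at least 20 miRNAs share a number, and red points are miR-29 members. The medians are higher from 8 guanines on than at 4, and the guides lie at or below the median at 4. miR-29c-5p lies below the median at 5 and miR-29b-2-5p below the median at 7.

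The profile of miR-29a-3p over the 14 libraries was most like those of miR-138-5p, miR-22-3p and miR-27b-3p, by Pearson r of log2(normalized count + 1) centred within each assay (r = 0.977, 0.969 and 0.967, among 148 miRNAs with a mean of at least 100 normalized counts in each assay). The centring was over both groups of an assay, so the drop between groups is part of the likeness. That these 3 were depleted like miR-29a-3p therefore largely follows from how they were chosen, and is a description. The log2 enrichments in the 2 assays, BoRed-seq first, were −2.88 ± 0.54 and −2.17 ± 0.40 for miR-138-5p, −3.43 ± 0.29 and −1.80 ± 0.25 for miR-22-3p, and −2.17 ± 0.26 and −1.75 ± 0.36 for miR-27b-3p. miR-29b-3p, with the same seed as miR-29a-3p, came at rank 59 of the 148 (r = 0.760).

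A list of 11 miRNAs known, as miR-29 is, to repress DNA methyltransferases, chromatin regulators or matrix genes was examined for comparison. All but miR-133a-3p passed the filter, and of these 10, 5 were depleted and 3 enriched in BoRed-seq, where 27.2% and 32.2% of all miRNAs were. In m7G-RIP-seq 5 were depleted and 1 enriched, where 29.9% and 27.3% of all were. The medians of the log2 enrichment were −0.81 and −0.45, against −0.091 and 0.019 over all miRNAs tested. miR-101-3p, which represses the histone methyltransferase EZH2, was depleted in both assays like miR-29a-3p, with log2 enrichments of −3.38 ± 0.35 and −4.26 ± 0.20 (DESeq2 adjusted p = 4.16e-21 and 3.21e-99). miR-148a-3p, which like miR-29 represses DNA methyltransferases, was at 0.25 ± 0.33 in BoRed-seq (adjusted p = 0.531) and depleted in m7G-RIP-seq at −2.91 ± 0.34 (adjusted p = 9.19e-17). miR-152-3p of the same family was depleted in BoRed-seq at −1.67 ± 0.44 (adjusted p = 0.000400) and was at 0.062 ± 0.23 in m7G-RIP-seq (adjusted p = 0.836). miR-148b-3p, also of that family, was depleted in both assays, at −1.51 ± 0.37 and −0.84 ± 0.26. So was miR-30c-5p, at −1.57 ± 0.36 and −2.53 ± 0.22. miR-26a-5p was depleted in BoRed-seq at −1.21 ± 0.29 and was the 1 enriched in m7G-RIP-seq, at 0.91 ± 0.41. let-7d-5p was enriched in BoRed-seq at 3.16 ± 0.35 (adjusted p = 7.78e-19) and was at 0.16 ± 0.27 in m7G-RIP-seq (adjusted p = 0.640).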

How the data were processed

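Small RNA of A549 cells was sequenced in 14 libraries, which were placed in groups by their labels. The authors deposited raw read counts per mature miRNA, 1 table per assay of 2588 miRNAs, not normalized or pooled. Per the labels and methods, Trimmomatic removed adaptors, an aligner (STAR in the methods, Bowtie2 in the submitters' processing notes) placed the reads on hg38 with at most 1 mismatch and 10 loci, and featureCounts counted them over miRBase. There were no molecular identifiers, so PCR copies count as reads, and counting intervals cover counting error alone. Library totals in the report give the depth. Red libraries were the shallowest, and 3 counts there are 12.4 and 10.8 CPM.

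Enrichment was tested with the DESeq2 1.42.0 Wald test (R 4.3.3) in each assay apart, with no covariate, after the design of the study. Filters were 10 counts in at least 2 (BoRed-seq) or 5 (m7G-RIP-seq) libraries, scaling was by medians of ratios, and p-values were adjusted by Benjamini-Hochberg over all miRNAs tested. A missing adjusted p stayed missing. Ratios of 2 miRNAs within a library were compared by unpaired exact two-sided permutation tests enumerated in R, and with limma 3.58.1 as an alternative. Enrichments of the assays were compared with a z test (scipy 1.17.1). The members, the related list, the tests and the alternatives were chosen with earlier results of these data known. The miRNAs named are the 7 members, the 3 most like miR-29a-3p and those of the related list, of which the examples were chosen after their values were seen. In m7G-RIP-seq, deviations of same-numbered IP and Input libraries were correlated (r = 0.179, 0.152, 0.146, 0.310 and 0.387). The numbers were therefore taken as a possible pairing, and blocked values of the enrichments are given where they change a call. Whether the split of replicates lies behind these correlations was not tested. The permutation p-values of the ratios take no account of a pairing. Alternatives were other scalings, edgeR 4.0.16, other filters and pseudocounts, the block, the split of replicates and leaving out each library. Tested on simulated data in which 200 miRNAs differed by 2 on the log2 scale, DESeq2 recovered 58.5% in BoRed-seq (395 miRNAs) and 78.0% in m7G-RIP-seq (595 miRNAs), with 2 and 6 false calls.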

Additional observations from a re-analysis of the deposited data

Results flagged for a closer look

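In a check of 13 groups of 5 m7G-RIP-seq libraries (each member in Input and in IP, where it had counts), a single library stood apart from the other 4 in 2 groups. Chance gives about 1 in 20 for each group if values are normally spread, which low counts with zeros are not. In both groups the library was IP replicate 1, which held 121.3 normalized counts of miR-29b-3p and 31.7 of miR-29c-3p. The gap to the nearest other IP library was 0.728 and 0.734 of the range of the group, above Dixon's critical value of 0.71 for 5 libraries. In the same library miR-29a-3p, the third guide, was the lowest of the 5 IP libraries. The cause was not tested.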

How the results depend on the processing

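The number of depleted members in BoRed-seq was 2 with other scalings, without a count filter, with the replicate block, and with Ctrl thinned to the depth of Red, and 3 with edgeR. It was 1 with 10 counts required in every library, and 1 to 2 without 1 library. In m7G-RIP-seq the 4 depleted members became 1 with 10 counts required in every library, 2 in replicates 1 to 3 alone, 6 in replicates 4 and 5 alone, 5 without a count filter, 5 with the replicate block or with a term for the split, and 3 to 5 without 1 library, where the losses come from miR-29b-2-5p leaving the filter. The members added to the depleted ones were not the same in these settings. The block and the term for the split added miR-29c-3p. Leaving out the count filter added miR-29a-5p, which the main test does not hold. In replicates 4 and 5 alone both were added. The 1 enriched member became 0 with edgeR, without a count filter, with the replicate block and in either set of replicates alone, and was 0 to 1 without 1 library. The count of members that differ between the assays was 0, and 0 to 1 without 1 library. The arm contrasts that passed were 1, and 0 to 1 without 1 library, and the same-arm contrasts 2, and 2 to 3. Both counts were the same with limma and a pseudocount of 5.

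Ratios of rare arms turned with the processing. With a pseudocount of 5 the m7G-RIP-seq difference was 0.58 for miR-29c-3p to miR-29c-5p, −0.71 for miR-29b-3p to miR-29b-2-5p and −1.38 for miR-29a-3p to miR-29c-3p, and the BoRed-seq difference for the miR-29a arms, which the counts of Red fix, was −4.15 instead of −2.15. In replicates 1 to 3 alone it was 1.33 for the miR-29c arms and −1.54 for miR-29a-3p to miR-29c-3p, and in replicates 4 and 5 alone 2.30 for miR-29b-3p to miR-29c-3p. Without 1 library these differences ran from −1.43 to 0.42 (miR-29c arms), −0.92 to 1.99 (miR-29b-3p to miR-29b-2-5p), −0.58 to 1.29 (miR-29a-3p to miR-29c-3p), −0.018 to 1.83 (miR-29a-3p to miR-29b-3p) and −1.52 to 0.73 (miR-29b-3p to miR-29c-3p). With total-count scaling the difference between the assays was −0.11 for miR-29a-3p and −0.54 for miR-29b-1-5p. Without 1 library it ran from −0.67 to 0.49 for miR-29b-1-5p, −1.98 to 3.45 for miR-29c-3p and −1.43 to 0.26 for miR-29c-5p. In BoRed-seq miR-29b-1-5p was at −0.061 without a count filter and at −0.80 to 1.41 without 1 library, and miR-29b-2-5p at −0.45 with the block and at −2.59 to 1.81 without 1 library. None of these values was called in the main analysis, and causes were not tested beyond the filter.

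In BoRed-seq same-numbered libraries had correlated deviations (r = 0.110), but with 2 pairs the libraries share a number only. The block left 2 members depleted there. In m7G-RIP-seq the block gave 5 depleted and 0 enriched, and changed no call other than those of miR-29b-1-5p and miR-29c-3p. The libraries of replicates 1, 2 and 5 correlated best with their own number, those of 3 and 4 did not. The depth of Red limits what can be said of the 5p arms.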
